A study of Mus musculus with 23 samples.

Results

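The suppressor of cytokine signalling (SOCS) genes described here are Cish, Socs1, Socs2, Socs3, Socs5 and Socs7, 6 of the 21900 genes in the deposited table. They were taken by gene symbol, and all 6 passed the filter on low counts in OT-I cells, in OT-II cells and in the fit of both. Other genes of the SOCS family were not examined, so the SOCS genes spoken of below are these 6. The libraries are of OT-I (CD8) and OT-II (CD4) T cells, whose T cell receptor transgenes recognise ovalbumin (OVA). Cells of either kind were transferred into C57BL/6 mice, which were injected 1 day later with 1 ug of A8B1-OVA, with free OVA at the molar equivalent of that dose (0.5 in the titles, without a unit), with a higher dose of free OVA (5 in the titles) or with saline. All mice therefore carried transferred transgenic T cells, and the saline groups are T cells that met no injected antigen. The sources used here do not say what A8B1 is, and the series title names erythrocyte targeting and anergy. Spleens and lymph nodes were pooled and the T cells sorted from them 5 days after transfer. Each library is 1 pool of RNA from 3 mice, so the spread below is between pools, and nothing in the labels says in what other way the pools are separate. There are 23 libraries in 8 groups, with n = 3 throughout apart from n = 2 for OT-II after higher-dose OVA, where replicates 2 and 3 are present.

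SOCS proteins are brakes on the JAK-STAT pathway. A cytokine joins its receptor chains, the JAK kinases bound to them phosphorylate the receptor and the STAT factors, and the STATs enter the nucleus and switch on genes, the SOCS genes among them. The SOCS protein then binds the receptor or the JAK through its SH2 domain, and its SOCS box recruits an elongin and cullin ubiquitin ligase. In T cells SOCS1 is best known for limiting interferon-gamma and common gamma chain cytokines, SOCS3 for limiting IL-6 and other signals through gp130, and CIS (encoded by Cish) and SOCS2 for being induced by STAT5. SOCS5 and SOCS7 have long N-terminal regions and are less well understood in T cells.

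Short stretches of 3 promoters are shown because SOCS genes are textbook targets of STAT and interferon feedback, and matches to the cores of such elements occur there. Whether these matches are the elements known to act on the genes was not tested. RefSeq promoter sequences (GRCm38.p6, 250 bases before and 50 bases after the start) were at hand for Cish, Socs1 and Socs3, 3 of the 6 genes. Capitals mark matches to TTCNNNGAA, the core of a STAT site, in Cish and Socs3, and to GAAA, any 2 bases and GAAA again, the core of an interferon-stimulated element, in Socs1. Each is written 5′ to 3′ on the strand of its gene, for chr9:107296654-107296683 (plus strand), chr11:117969502-117969531 (minus strand) and chr16:10785597-10785626 (minus strand).
Cish: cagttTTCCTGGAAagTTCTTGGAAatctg
Socs3: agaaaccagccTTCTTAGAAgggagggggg
Socs1: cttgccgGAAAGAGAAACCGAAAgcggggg

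Positions are counted from the RefSeq start that the window was cut around, which for Cish and Socs3 lies inside the GENCODE gene given further on, not at its outer end. Cish held 2 STAT cores, from base 1 to base 20. Socs3 held 1, from base -154 to base -146, and Socs1 held 2 overlapping interferon elements between base -83 and base -68. Searched on both strands, TTCNNNGAA was present in 2726 of 32851 promoter windows of the same length (8.3%), and 150 windows (0.457%) held it at least 2 times. The interferon element core was present in 1131 windows (3.44%), and 74 (0.225%) held it at least 2 times. A match is a run of letters and says nothing on whether a factor was bound in these cells.

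In GRCm38 with GENCODE M21, Cish lies on chromosome 9 (107296026 to 107302784), Socs1 on chromosome 16 (10782240 to 10785536), Socs2 on chromosome 10 (95385362 to 95417180), Socs3 on chromosome 11 (117966079 to 117970047), Socs5 on chromosome 17 (87107679 to 87137839) and Socs7 on chromosome 11 (97362551 to 97398542). Values are CPM, reads per M counted reads, after TMM scaling, and a count covers all exons of a gene. Of the 31-base words of their transcripts, Cish shared 10.4% with other genes, most of them with Gm17041, and Socs2 shared 6.55%, most of them with Gm9847, so part of their counts may be split with those genes. Socs1, Socs3 and Socs5 shared 0% and Socs7 0.0277%.

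Per length of merged exons, which join all annotated transcripts of a gene, the levels of the 6 genes fell into this order over all 23 libraries. Socs3 was highest at 44.3 CPM per kb, followed by Socs1 at 24.5, Cish at 2.65, Socs5 at 1.98, Socs7 at 0.546 and Socs2 at 0.233 CPM per kb. Socs2 has 14 annotated transcripts, Cish 5 and Socs1 2. Merged exons can be longer than the transcript expressed, so the order may depend on the annotation. Socs3 was also the most variable, running from 34.6 to 389 CPM, an 11.2-fold span, against spans of 2.85-fold for Socs1, 4-fold for Cish, 4.54-fold for Socs2, 4.17-fold for Socs5 and 3.29-fold for Socs7. Without OT-II saline replicate 1 the highest Socs3 value was 218 CPM and its span 6.3-fold. The lowest count of Socs2 in any library was 36 and that of Socs7 was 95, so both were measured well above the limit of 3 counts that an absence allows.

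**Figure D1:**
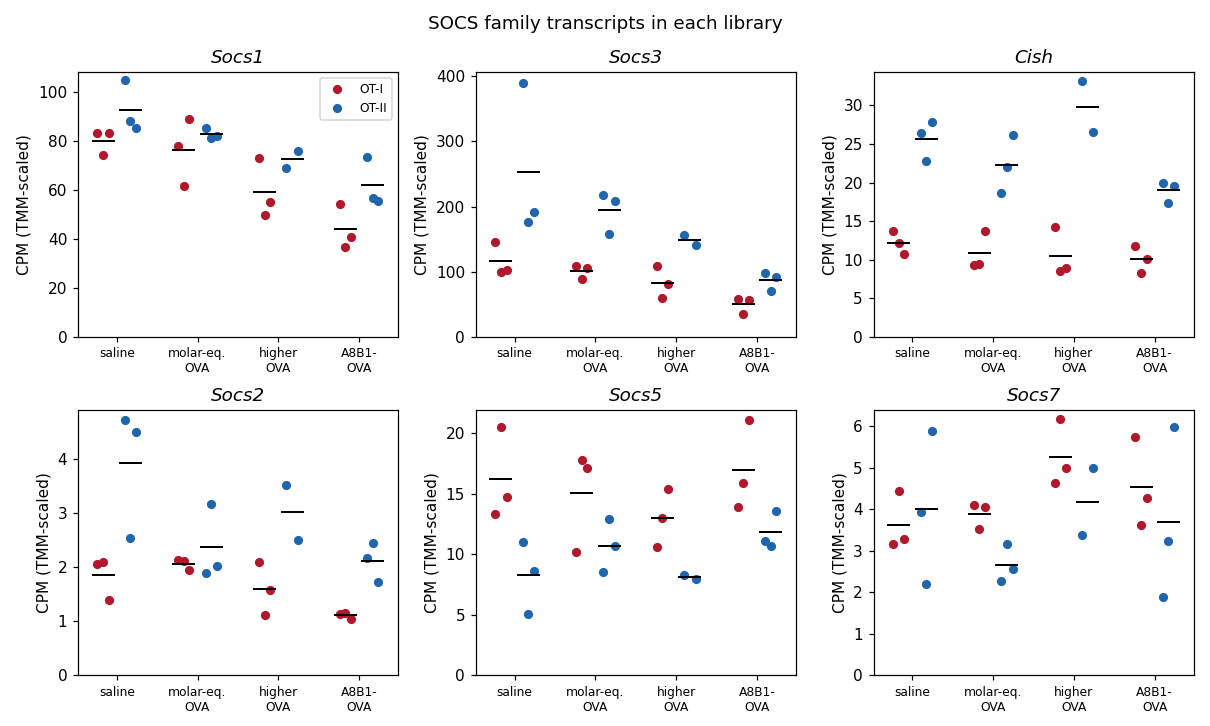
CPM of each SOCS gene (vertical axes, from 0) in every library, by treatment (horizontal axes), OT-I in red and OT-II in blue; bars are group means. Socs3 and Socs1 sit lowest after A8B1-OVA in OT-I, Cish is higher in every OT-II library than in any OT-I library, and 1 OT-II saline library stands apart with 389 CPM of Socs3.

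Total counts ran from 26.6 M to 73.5 M per library. Cd8a was 783 to 1400 CPM in OT-I and 1.12 to 7.41 CPM in OT-II, and Cd4 was 539 to 699 CPM in OT-II, while in OT-I higher-dose OVA replicate 1 Cd4 reached 163 CPM. Transcripts of other cells were present in all libraries: none of the 12 myeloid markers was at 0 anywhere, and their summed level ran from 122 to 1150 CPM. The highest sums were in OT-I molar-equivalent OVA replicate 2 (1150 CPM, with 1910 CPM of 7 B cell markers) and OT-II saline replicate 1 (896 CPM). These, OT-I saline 1, OT-I higher-dose OVA 1 and OT-II molar-equivalent OVA 3 are named below as the 5 libraries with raised markers of other cells. Results that change without them are given both ways. Some kept libraries held as much. OT-I molar-equivalent OVA 3 had 345 CPM of myeloid and 448 CPM of B cell markers, beside 300 and 206 CPM in OT-I higher-dose OVA 1. OT-II molar-equivalent OVA 2 had 342 CPM of myeloid and 404 CPM of B cell markers, beside 323 and 704 CPM in replicate 3 of that group. In bulk RNA, fewer cells of a type and less RNA per cell cannot be told apart.

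The first comparison asked how T cells that met OVA on A8B1 differed from cells of mice given saline. In both cell types Socs3 and Socs1 were lower after A8B1-OVA, and none of the 6 genes was higher. In OT-I this made 2 of 6 genes lower, where 4.43% of 14080 tested genes were lower and 11.5% passed in either direction. In OT-II it also made 2 of 6 lower, against 2.88% of 14757 tested genes lower and 7.28% in either direction. The median log2 fold change of the 6 genes was -0.51 in OT-I and -0.49 in OT-II, beside -0.02 and -0.01 over all tested genes.

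Socs3 and Socs1 encode the family members that can block the JAK catalytic site directly. Socs3 in OT-I was 58.5, 34.6 and 55.9 CPM after A8B1-OVA (replicates 1 to 3) and 145, 99.9 and 102 CPM after saline. All A8B1-OVA libraries lay below all saline libraries. The log2 fold change was -1.23 ± 0.24 (SE), 2.35-fold lower (edgeR quasi-likelihood test, Benjamini-Hochberg adjusted p = 0.0056). Socs3 in OT-II was 98.4, 70.8 and 91.3 CPM after A8B1-OVA and 389, 177 and 191 CPM after saline. Again the groups did not overlap, and saline replicate 1 held the most Socs3 of all 23 libraries. The log2 fold change was -1.52 ± 0.25 (edgeR adjusted p = 0.0038). Without saline replicate 1 it was -1.07 (edgeR adjusted p = 0.0031), so the direction and the call held while the size fell.

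Socs1 in OT-I was 54.2, 36.9 and 40.7 CPM after A8B1-OVA and 83.3, 74.4 and 83.2 CPM after saline. The groups did not overlap, with a log2 fold change of -0.88 ± 0.19 (edgeR adjusted p = 0.0089). Without A8B1-OVA replicate 2, the library with the least Socs1, it was -0.75 and no longer passed (edgeR adjusted p = 0.057). In OT-II, Socs1 was 73.5, 56.8 and 55.7 CPM after A8B1-OVA and 105, 88.3 and 85.4 CPM after saline. The libraries were again separate and the change was smaller, -0.57 ± 0.12 (edgeR adjusted p = 0.015). This call depended on single libraries, since the adjusted p from edgeR was 0.059 without A8B1-OVA replicate 2, 0.051 without saline replicate 1 and 0.077 without the 5 libraries with raised markers, at log2 fold changes of -0.51, -0.48 and -0.48.

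Cish and Socs2, the members tied to STAT5, did not pass in either cell type. Cish in OT-I was 11.8, 8.29 and 10.1 CPM after A8B1-OVA and 13.7, 12.1 and 10.7 CPM after saline, which overlap (-0.28 ± 0.24, edgeR adjusted p = 0.49). In OT-II Cish was 20, 17.4 and 19.6 CPM after A8B1-OVA and 26.4, 22.8 and 27.8 CPM after saline, without overlap (-0.42 ± 0.15, edgeR adjusted p = 0.13). Socs2 showed separate groups in both cell types at levels near the low end of the family. Its OT-I values were 1.14, 1.15 and 1.04 CPM against 2.06, 2.09 and 1.4 CPM (-0.75, 95% interval -1.46 to -0.04, edgeR adjusted p = 0.17). Its OT-II values were 2.18, 2.45 and 1.73 CPM against 4.73, 2.55 and 4.5 CPM (-0.87, interval -1.6 to -0.14, edgeR adjusted p = 0.15). These intervals reach from almost no difference to more than the change of Socs1.

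Socs5 and Socs7 did not pass in either cell type. Socs5, which has been tied to IL-4 receptor and EGF receptor signalling, was 13.9, 15.9 and 21.1 CPM in OT-I after A8B1-OVA and 13.3, 20.5 and 14.7 CPM after saline (0.06, 95% interval -0.48 to 0.6). In OT-II it was 11.1, 10.7 and 13.6 CPM against 11, 5.06 and 8.63 CPM, overlapping by 1 saline library (0.54, interval -0.02 to 1.11, edgeR adjusted p = 0.26). Socs7, known as an adaptor that binds other signalling proteins, was 5.73, 3.62 and 4.27 CPM against 3.15, 4.43 and 3.27 CPM in OT-I (0.32, interval -0.23 to 0.87). In OT-II Socs7 ranged almost as widely within a group (1.87 to 5.99 CPM after A8B1-OVA and 2.19 to 5.89 CPM after saline) as over all 23 libraries, and its interval of -1.05 to 0.86 allows changes of either sign.

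**Figure D2:**
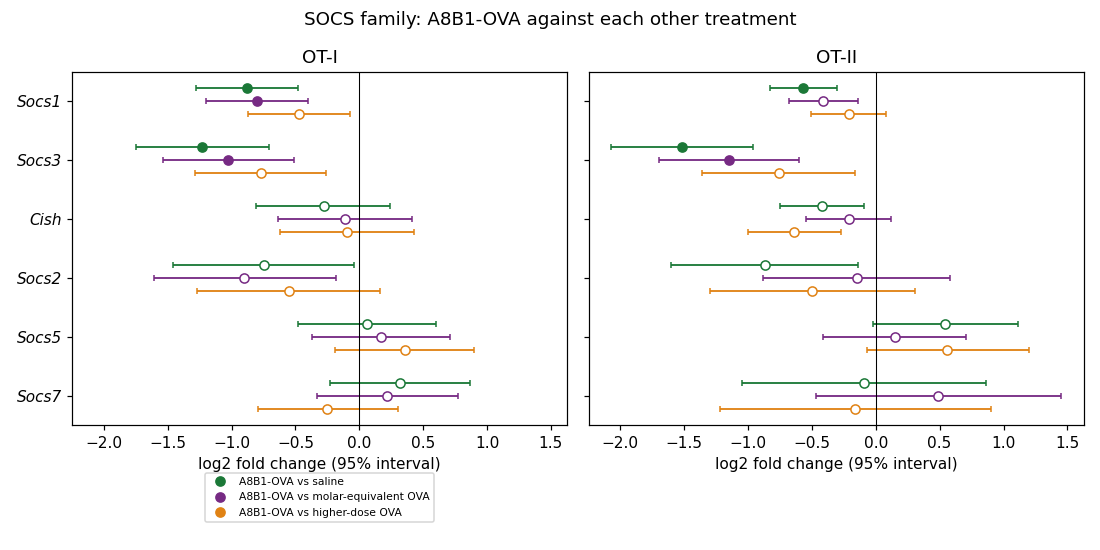
Log2 fold change (horizontal axis) with its 95% interval for each SOCS gene (vertical axis) after A8B1-OVA against saline, molar-equivalent OVA and higher-dose OVA, in OT-I (left) and OT-II (right); filled points passed an adjusted p of 0.05. Socs3 and Socs1 carry all 7 filled points, from -1.52 to -0.57, and against higher-dose OVA no point is filled.

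The comparison with free OVA at the molar equivalent holds the amount of OVA equal. It uses the same A8B1-OVA libraries as the one with saline, so they are not independent of each other. In OT-I, Socs3 in the molar-equivalent libraries was 108, 88.7 and 105 CPM and Socs1 was 77.9, 61.9 and 89.2 CPM, all above every A8B1-OVA library. The log2 fold changes were -1.03 ± 0.24 for Socs3 (edgeR adjusted p = 0.017) and -0.80 ± 0.19 for Socs1 (edgeR adjusted p = 0.016). That is 2 of 6 genes lower, where 4.06% of tested genes were lower and 10.6% passed in either direction. Markers of other cells were lower in the same comparison. Of 12 myeloid markers 4 were lower by the test and 11 had an unadjusted p under 0.05 (list median -2.44), with sums of 122 to 192 CPM against 176 to 1150 CPM. Of 7 B cell markers 0 passed and 6 had an unadjusted p under 0.05 (median -2.42), and 1 of 6 NK markers was lower. Of 21 heat shock and immediate-early genes, a list put together after the data were seen, 3 were lower and 1 was higher. Their median was -0.57, and 11 had an unadjusted p under 0.05. Without the 5 libraries with raised markers, among them molar-equivalent replicate 2, Socs3 was at -1.11 (edgeR adjusted p = 0.015) and Socs1 at -0.93 (edgeR adjusted p = 0.013). Molar-equivalent replicates 1 and 3, which stay, held 176 and 345 CPM of myeloid markers. Leaving out A8B1-OVA replicate 2 ended both calls (edgeR adjusted p = 0.078 for Socs3 and 0.089 for Socs1). Without molar-equivalent replicate 1 Socs3 was at -0.97 (edgeR adjusted p = 0.051), and without molar-equivalent replicate 3 Socs1 was at -0.66 (edgeR adjusted p = 0.054). Socs2 was 2.13, 2.11 and 1.94 CPM after molar-equivalent OVA, again above every A8B1-OVA library, at -0.90 ± 0.33 (edgeR adjusted p = 0.10; DESeq2 adjusted p = 0.042).

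In OT-II, only Socs3 of the 6 genes passed this comparison, 1 gene lower where 2.43% of tested genes were lower and 6.36% passed in either direction. Its molar-equivalent libraries held 218, 158 and 209 CPM, above every A8B1-OVA library, and the log2 fold change was -1.15 ± 0.25 (edgeR adjusted p = 0.018). Without A8B1-OVA replicate 2, molar-equivalent replicate 1 or molar-equivalent replicate 3 it ran from -1.09 to -1.02 and did not pass (edgeR adjusted p = 0.079, 0.072 and 0.06). Of the 12 myeloid markers 0 passed here and 6 had an unadjusted p under 0.05 (median -1.04), with sums of 123 to 212 CPM against 320 to 342 CPM. Of the 21 heat shock and immediate-early genes 1 was higher and 0 were lower, and 7 had an unadjusted p under 0.05 (median -0.17). Without the 5 libraries with raised markers Socs3 was at -1.09 (edgeR adjusted p = 0.0056). Of the 2 groups compared, that takes out only molar-equivalent replicate 3 (323 CPM of myeloid markers). Molar-equivalent replicates 1 and 2, at 320 and 342 CPM, stay, so the myeloid marker difference stays too. Socs1 was 85.5, 81.4 and 82.2 CPM after molar-equivalent OVA, a tight group above all A8B1-OVA libraries, at -0.41 ± 0.12 (edgeR adjusted p = 0.068; DESeq2 adjusted p = 0.02). Cish at 18.6, 22 and 26.1 CPM and Socs2 at 1.9, 3.17 and 2.03 CPM overlapped their A8B1-OVA values.

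Against the higher dose of free OVA no SOCS gene passed in either cell type, in comparisons where 2.41% of genes passed for OT-I cells and 1.34% for OT-II cells. Each cell type had 2 of the 6 genes at an unadjusted p under 0.05 and 1 called by DESeq2. Of all tested genes, 2661 of 14080 in OT-I and 1890 of 14757 in OT-II had an unadjusted p under 0.05. DESeq2 called 1202 and 706 genes. In OT-I, Socs3 after higher-dose OVA was 108, 60.1 and 80.8 CPM, just above the A8B1-OVA libraries, at -0.77 ± 0.24 (edgeR adjusted p = 0.11; DESeq2 adjusted p = 0.029). Socs1 was 73.1, 50 and 55 CPM and overlapped A8B1-OVA (-0.47 ± 0.18, edgeR adjusted p = 0.19). Without higher-dose replicate 1, the library with 108 CPM of Socs3 and with raised Cd4, Socs3 was at -0.53 and Socs1 at -0.28. In OT-II, Cish was 33.1 and 26.6 CPM after higher-dose OVA, the highest group mean of Cish in the series, against 17.4 to 20 CPM after A8B1-OVA (-0.64 ± 0.17, edgeR adjusted p = 0.1; DESeq2 adjusted p = 0.012). Socs3 there was 157 and 141 CPM (-0.76, 95% interval -1.36 to -0.16, edgeR adjusted p = 0.26) and Socs1 was 69.2 and 75.9 CPM, which overlaps A8B1-OVA. Of 12 myeloid markers 0 passed in either cell type, with 3 in each at an unadjusted p under 0.05. In OT-I they summed to 122 to 192 CPM after A8B1-OVA against 195 to 300 CPM. In OT-II the sums were 123 to 212 against 258 to 283 CPM. Of the 21 heat shock and immediate-early genes, 1 was lower, 2 were higher and 13 had an unadjusted p under 0.05 in OT-I. In OT-II 1 was higher and 3 had an unadjusted p under 0.05.

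Free OVA itself moved no SOCS gene past the threshold, with edgeR or DESeq2, although 2 of 6 had an unadjusted p under 0.05 for the higher dose against saline in each cell type. For higher-dose OVA against saline, 2.41% of genes passed in OT-I, with 1730 of 14080 at an unadjusted p under 0.05 and 712 by DESeq2. In OT-II 0.0271% passed (4 genes, with 872 of 14757 at an unadjusted p under 0.05 and 90 by DESeq2). Socs3 stood at -0.46 in OT-I (95% interval -0.97 to 0.05) and -0.76 in OT-II (interval -1.37 to -0.14, edgeR adjusted p = 0.75). Socs1 stood at -0.41 (edgeR adjusted p = 0.38) and -0.36 (edgeR adjusted p = 0.76), with no overlap with saline in either cell type. In OT-I, Socs7 was 4.64, 6.17 and 4.98 CPM after higher-dose OVA, all above saline, at 0.56 ± 0.25 (edgeR adjusted p = 0.39). For molar-equivalent OVA against saline, 0% of genes passed with edgeR in OT-I (266 at an unadjusted p under 0.05, 1 by DESeq2) and 0% in OT-II (577 at an unadjusted p under 0.05, 22 by DESeq2). In both cell types 0 of 6 SOCS genes had an unadjusted p under 0.05 there. All 6 overlapped saline, but overlap was not counted over all genes, so this has no share to stand beside.

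Ordered by group mean, Socs3 was highest in OT-II saline (252 ± 118 CPM, SD), then OT-II molar-equivalent OVA (195 ± 32.6), OT-II higher-dose OVA (149 ± 11.6, n = 2), OT-I saline (116 ± 25.5), OT-I molar-equivalent OVA (101 ± 10.5), OT-II A8B1-OVA (86.8 ± 14.3), OT-I higher-dose OVA (82.9 ± 24) and OT-I A8B1-OVA (49.7 ± 13.1). Neighbours in this order overlapped except OT-II molar-equivalent over higher-dose OVA, and OT-I higher-dose OVA over OT-I A8B1-OVA. Socs1 followed a similar order within each cell type, from 93 ± 10.7 CPM in OT-II saline to 43.9 ± 9.12 CPM in OT-I A8B1-OVA, and every neighbouring pair overlapped. Cish had 1 gap, between the lowest OT-II group (A8B1-OVA, 19 ± 1.4 CPM) and the highest OT-I group (saline, 12.1 ± 1.49 CPM). For Socs2, Socs5 and Socs7 all neighbouring groups overlapped.

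The cell types were then compared within each treatment, with the OT-I and OT-II libraries taken as independent. Cish was lower in OT-I than in OT-II under all 4 treatments, and Socs3 under 3 of them. After saline, Cish averaged 12.1 ± 1.49 CPM in OT-I and 25.7 ± 2.62 CPM in OT-II, a log2 difference of -1.08 ± 0.21 (edgeR adjusted p = 0.00085). It was -1.04 after molar-equivalent OVA (edgeR adjusted p = 0.0013), -1.51 ± 0.23 after higher-dose OVA (edgeR adjusted p = 0.00014) and -0.92 after A8B1-OVA (edgeR adjusted p = 0.0034). Each of these 4 calls held under every alternative run, including each library left out. No OT-I library reached the lowest OT-II library.

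After saline, 4 of the 6 SOCS genes differed between the cell types, where 15.5% of 15235 tested genes did. Cish, Socs2 and Socs3 were lower in OT-I (7.11% of genes were), and Socs5 was higher in OT-I (8.36% of genes were). Socs3 stood at -1.12 ± 0.27 (edgeR adjusted p = 0.0062) and fell to -0.69 without OT-II saline replicate 1 (edgeR adjusted p = 0.058). Socs2 stood at -1.08 ± 0.31 (edgeR adjusted p = 0.021), with edgeR adjusted p = 0.076 without OT-II saline replicate 1, 0.08 without OT-II saline replicate 3, 0.099 without OT-I saline replicate 3 and 0.13 without the 5 libraries with raised markers. Socs5 stood at 0.98 ± 0.27 (edgeR adjusted p = 0.016), from 16.2 ± 3.81 CPM in OT-I and 8.23 ± 2.98 CPM in OT-II. Without replicate 2 of either saline group it was 0.73 to 0.75 and did not pass (edgeR adjusted p = 0.092 and 0.11). In this comparison 0 of 7 erythroid markers passed and 6 had an unadjusted p under 0.05 (median -1.65), while 4 of 21 heat shock and immediate-early genes, a list put together after the data were seen, were lower and 2 higher.

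After molar-equivalent OVA 2 SOCS genes were lower in OT-I, Cish and Socs3, where 7.06% of genes were lower and 16% passed in either direction. Socs3 there was at -0.95 ± 0.27 (edgeR adjusted p = 0.019), and did not pass without OT-I molar-equivalent replicate 2 (edgeR adjusted p = 0.062) or without OT-II molar-equivalent replicate 1 or 3 (edgeR adjusted p = 0.072 and 0.058). Of the 21 heat shock and immediate-early genes 4 were lower and 1 was higher there. After higher-dose OVA Cish alone passed, where 4.55% of genes were lower and 10.1% passed in either direction. Socs3 there was at -0.85 ± 0.3 (edgeR adjusted p = 0.076). Without OT-I higher-dose replicate 1, the library with 163 CPM of Cd4, Socs3 was at -1.08 and passed (edgeR adjusted p = 0.033).

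After A8B1-OVA 4 of the 6 genes were lower in OT-I, where 8.34% of genes were lower and 20.6% passed in either direction. Besides Cish these were Socs1 (-0.50 ± 0.16, edgeR adjusted p = 0.037), Socs2 (-0.93 ± 0.32, edgeR adjusted p = 0.041) and Socs3 (-0.81 ± 0.27, edgeR adjusted p = 0.039). All 3 calls were close to the threshold. Of the 21 heat shock and immediate-early genes 8 were lower in OT-I and 1 was higher, 15 had an unadjusted p under 0.05, and the list median was -0.43. They summed to 8580 to 10900 CPM in OT-I and 10000 to 17000 CPM in OT-II. Socs2 did not pass when any A8B1-OVA library other than OT-II replicate 3 was left out, nor without the 5 libraries with raised markers (edgeR adjusted p = 0.052) or without the filter on low counts (edgeR adjusted p = 0.063). Without OT-I A8B1-OVA replicate 2, Socs1 was at -0.38 and Socs3 at -0.60 (edgeR adjusted p = 0.19 for both). Without OT-II A8B1-OVA replicate 1 they were at -0.36 and -0.71 (edgeR adjusted p = 0.2 and 0.13). Socs1 also failed without OT-I A8B1-OVA replicate 3 (edgeR adjusted p = 0.092), and Socs3 without OT-II A8B1-OVA replicate 3 (edgeR adjusted p = 0.095).

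Whether the response to A8B1-OVA differed between OT-I and OT-II was tested as the difference of the responses. No SOCS gene passed in any of these 3 tests, in which 0.433% of genes passed for A8B1-OVA against saline, 0.00656% for A8B1-OVA against higher-dose OVA and 0.00656% for higher-dose OVA against saline. No SOCS gene passed at an unadjusted p under 0.05 either, nor with DESeq2. In the same order, 1408, 786 and 772 of 15235 genes had an unadjusted p under 0.05. For Socs3 against saline the OT-I response minus the OT-II response was 0.32 (95% interval -0.47 to 1.1), and without OT-II saline replicate 1 it turned to -0.12. For Socs1 it was -0.29 (interval -0.77 to 0.2). The largest difference of the 3 tests for Cish was 0.59 (interval -0.05 to 1.23), for A8B1-OVA against higher-dose OVA. These intervals leave room for differences as large as the changes of Socs1 themselves.

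Over the 23 libraries, with log2 CPM centred within each cell type, Socs1 and Socs3 rose and fell together, with Pearson's r of 0.88 (0.93 over 12 OT-I libraries and 0.91 over 11 OT-II libraries). Socs2 followed them at 0.65 with Socs1 and 0.66 with Socs3, and Cish at 0.55 and 0.57. Socs5 ran slightly opposite to Socs1 (-0.3). These values describe libraries that share treatments, depth and handling, so no p is given. Among 8494 other genes of at least 10 CPM, Rassf1 (r of 0.91) and Rrad (0.90) were among the closest to Socs3. The closest to Socs1 were Mettl18, Trat1 and Klf13 (0.92 each). Cish was nearest to Tent5c (0.73), Rasl11b (0.73) and Znrf1 (0.70), and Socs5 to Fam120c (0.78), Gpalpp1 (0.67) and Fam210a (0.66).

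Other summed levels moved with Socs3. In OT-I the 12 myeloid markers summed to 122 to 192 CPM after A8B1-OVA and 185 to 570 CPM after saline, with 1 of 12 lower by the test. In OT-II they summed to 123 to 212 CPM against 266 to 896 CPM, with 3 of 12 lower, and the saline library with 389 CPM of Socs3 was the one with 896 CPM. Without the 5 libraries with raised markers, Socs3 was at -1.03 in OT-I (edgeR adjusted p = 0.022) and -1.07 in OT-II (edgeR adjusted p = 0.0057). The saline libraries that stay held 251 and 185 CPM of myeloid markers in OT-I and 266 and 299 CPM in OT-II. The OT-I library with 1150 CPM of myeloid markers held 88.7 CPM of Socs3, the lowest of its group of 3. Of 7 erythroid markers 0 passed in OT-II and 5 had an unadjusted p under 0.05 (median -1.22), with sums of 172 to 373 CPM against 190 to 1110 CPM, highest in the saline library with 389 CPM of Socs3. The 21 heat shock and immediate-early genes, among which Socs3 was not counted, summed to 8580 to 10900 CPM after A8B1-OVA and 12600 to 15200 CPM after saline in OT-I, with 9 of 21 lower. In OT-II it summed to 10000 to 17000 CPM against 16400 to 21000 CPM, with 4 lower and 2 higher. The part of these genes in the SOCS results, here and in the comparisons above, was not tested.

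**Figure D3:**
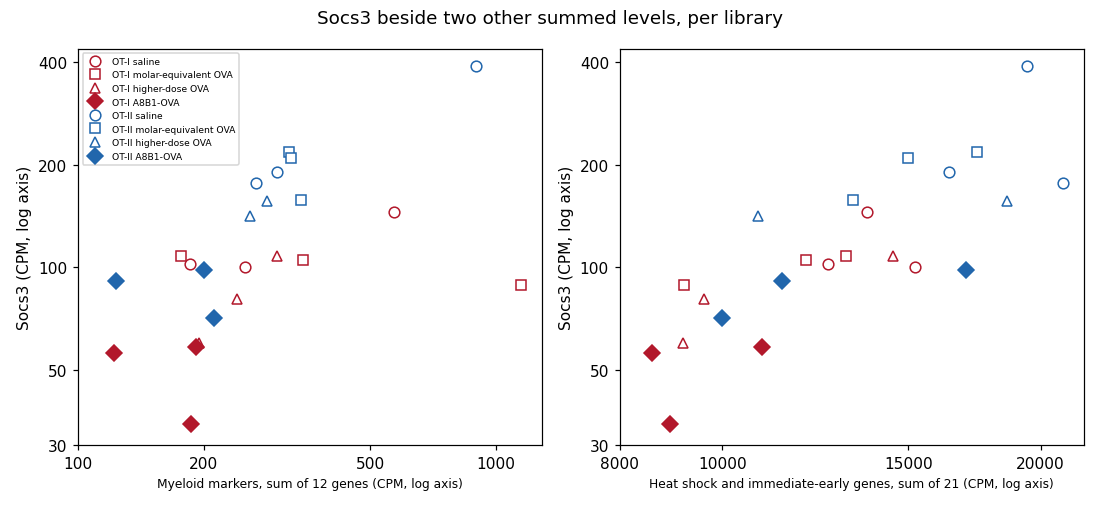
Socs3 (vertical axes, CPM, log scale) in each library against the summed CPM of 12 myeloid markers (left) and of 21 heat shock and immediate-early genes (right), log scales; colours are cell types, shapes treatments, filled symbols A8B1-OVA. The A8B1-OVA libraries lie low on Socs3 in both panels, and 1 OT-II saline library combines 389 CPM of Socs3 with 896 CPM of myeloid markers.

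The rest of the pathway was read in 8 lists for A8B1-OVA against saline, beginning with the ligands and receptors. Few ligands were expressed: of 15 listed, 5 were tested in OT-I and 8 in OT-II. In OT-I, Il2, the T cell growth factor, was higher, at 0.86 ± 0.257 CPM against 0.0748 ± 0.0649 CPM, levels at which saline is near the limit of detection, and it did not pass in 3 of 12 alternatives. Osm, a gp130 cytokine induced by STAT5, was lower, at 10.2 ± 2 CPM against 16.3 ± 1.91 CPM (-0.68 ± 0.2, edgeR adjusted p = 0.042), and passed in 4 of 12 alternatives. In OT-II 0 ligands passed with edgeR (3 at an unadjusted p under 0.05) and 1 with DESeq2.

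Of 20 cytokine receptor chains, 1 was higher and 6 lower in OT-I (2 higher without the 5 libraries with raised markers), and 4 were higher and 5 lower in OT-II. Il7r, the IL-7 receptor chain of resting T cells, fell from 439 ± 12.3 to 133 ± 37.5 CPM in OT-I (-1.74 ± 0.2, edgeR adjusted p = 2e-04) and from 264 ± 13.8 to 99 ± 30.6 CPM in OT-II (-1.40 ± 0.18, edgeR adjusted p = 0.001). Ifngr2, the signalling chain of the interferon-gamma receptor that SOCS1 restrains, fell from 67.4 ± 7.05 to 19.9 ± 0.52 CPM in OT-I (-1.77 ± 0.18, edgeR adjusted p = 9.2e-05) and by 0.61 on the log2 scale in OT-II (edgeR adjusted p = 0.011). Il18r1, of the IL-18 receptor, which does not signal through JAKs, was at -1.38 ± 0.19 and -1.35 ± 0.24 (edgeR adjusted p = 0.00059 and 0.0059). The Ifngr2 call in OT-II was lost without saline replicate 3 (edgeR adjusted p = 0.053).

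A few further chains were picked after their values were seen, since they belong to receptors whose signals SOCS proteins limit. Il6ra, the IL-6 binding chain, fell from 139 ± 9.43 to 72 ± 11.8 CPM in OT-I (-0.96 ± 0.19) and from 179 ± 14.3 to 105 ± 11 CPM in OT-II (-0.75 ± 0.14), with edgeR adjusted p = 0.0066 and 0.0083. Il6st, which encodes gp130, the chain SOCS3 binds, rose in OT-II from 208 ± 23.3 to 404 ± 65.4 CPM (0.97 ± 0.15, edgeR adjusted p = 0.002) and was at 0.38 ± 0.26 in OT-I (edgeR adjusted p = 0.38). Il2rb, the shared chain of the IL-2 and IL-15 receptors, rose in both, from 546 ± 11.8 to 1000 ± 12.8 CPM in OT-I (0.87 ± 0.19, edgeR adjusted p = 0.011) and from 80.7 ± 19.9 to 229 ± 46 CPM in OT-II (1.52 ± 0.23, edgeR adjusted p = 0.002). Ifngr1, the binding chain of the interferon-gamma receptor, was at -0.96 ± 0.19 and -0.66 ± 0.13 (edgeR adjusted p = 0.0056 and 0.0085). The calls of Il6ra, Il2rb and Ifngr1 in both cell types, and of Il6st in OT-II, held in all 12 alternatives.

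Among the 4 JAK kinases, 0 passed in OT-I (0 at an unadjusted p under 0.05, 0 by DESeq2) and Jak2 was higher in OT-II (0.58 ± 0.14, edgeR adjusted p = 0.029, passing in 4 of 12 alternatives). Of 6 STAT genes, Stat5a was higher in both cell types, from 99.7 ± 9.43 to 155 ± 6.11 CPM in OT-I (0.62 ± 0.13, edgeR adjusted p = 0.01) and from 112 ± 12.9 to 201 ± 12.4 CPM in OT-II (0.86 ± 0.11, edgeR adjusted p = 0.00077). In OT-I, Stat5a did not pass in 2 of 12 alternatives (edgeR adjusted p up to 0.07). Stat4, the factor downstream of IL-12, was higher in OT-II (0.39 ± 0.08, edgeR adjusted p = 0.015, passing in 8 of 12 alternatives) and stood at 0.10 in OT-I, where it was not called. Stat3 was not called.

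Genes of the target lists were called in both directions. Of 15 STAT5 targets, 2 were higher and 4 lower in OT-I, and 3 were higher and 2 lower in OT-II. Without the 5 libraries with raised markers 2 were lower in OT-I. Bcl2l1, which encodes the survival protein BCL-XL, rose in both (1.21 ± 0.16 in OT-I and 0.75 ± 0.14 in OT-II, edgeR adjusted p = 0.00044 and 0.0059). Bcl2, another survival gene, fell in OT-I from 294 ± 32.3 to 110 ± 28.7 CPM (-1.43 ± 0.2, edgeR adjusted p = 0.00078) and was at -0.30 in OT-II (edgeR adjusted p = 0.25). Prf1, the pore protein of cytotoxic granules, fell in both (-0.75 ± 0.18 and -1.14 ± 0.14, edgeR adjusted p = 0.018 and 0.00065), and in OT-I it passed in 8 of 12 alternatives. Bcl6, a repressor named here after its values were seen, rose by 0.92 ± 0.26 and 1.46 ± 0.19 (edgeR adjusted p = 0.039 and 0.0011), with the OT-I call kept in 7 of 12 alternatives.

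Of 9 STAT3 targets, 1 was higher and 4 lower in each cell type, with medians of -0.90 in OT-I and -0.64 in OT-II. Pim1, a kinase gene that is also on the STAT5 list, fell in both (-0.98 ± 0.24 and -1 ± 0.18, edgeR adjusted p = 0.021 and 0.0052), and in OT-I it passed in 9 of 12 alternatives. Junb, an AP-1 subunit that is also on the heat shock and immediate-early list, was at -1.58 ± 0.32 and -1.33 ± 0.33 (edgeR adjusted p = 0.0068 and 0.028), and in OT-II it passed in 6 of 12 alternatives. Prdm1, which encodes the repressor BLIMP-1, fell in OT-II from 14.2 ± 0.686 to 4.41 ± 0.646 CPM (-1.67 ± 0.23, edgeR adjusted p = 0.0012) and in OT-I was at -1.83 ± 0.58 without passing, with 0.718 ± 0.206 CPM after A8B1-OVA and 2.54 ± 1.76 CPM after saline (edgeR adjusted p = 0.062). Without the 5 libraries with raised markers, 1 STAT3 target was lower in OT-I and 2 in OT-II.

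Of 13 genes listed as other brakes on JAK-STAT signalling, 2 were higher and 1 lower in OT-I, and 1 was higher and 1 lower in OT-II. Without the 5 libraries with raised markers 0 were called in OT-I and 0 were higher in OT-II. Pias1, a SUMO ligase that restrains STAT factors, was lower in OT-I (-0.50 ± 0.13, edgeR adjusted p = 0.03). Sh2b3, the adaptor LNK that restrains JAK2, was higher in OT-II (0.50 ± 0.11, edgeR adjusted p = 0.019). Ube2l6, a conjugating enzyme for ISG15, was lower there (-1.09 ± 0.18, edgeR adjusted p = 0.0039). Its place on the list claims no direct action on JAKs or STATs. Pias1 passed in 7 and Sh2b3 in 8 of their 12 alternatives. The 9 genes of the ligase that the SOCS box recruits (elongins, cullins and partners) had 0 calls in either cell type with edgeR (0 and 0 at an unadjusted p under 0.05) and DESeq2, with medians of 0.12 and 0.03.

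**Figure D4:**
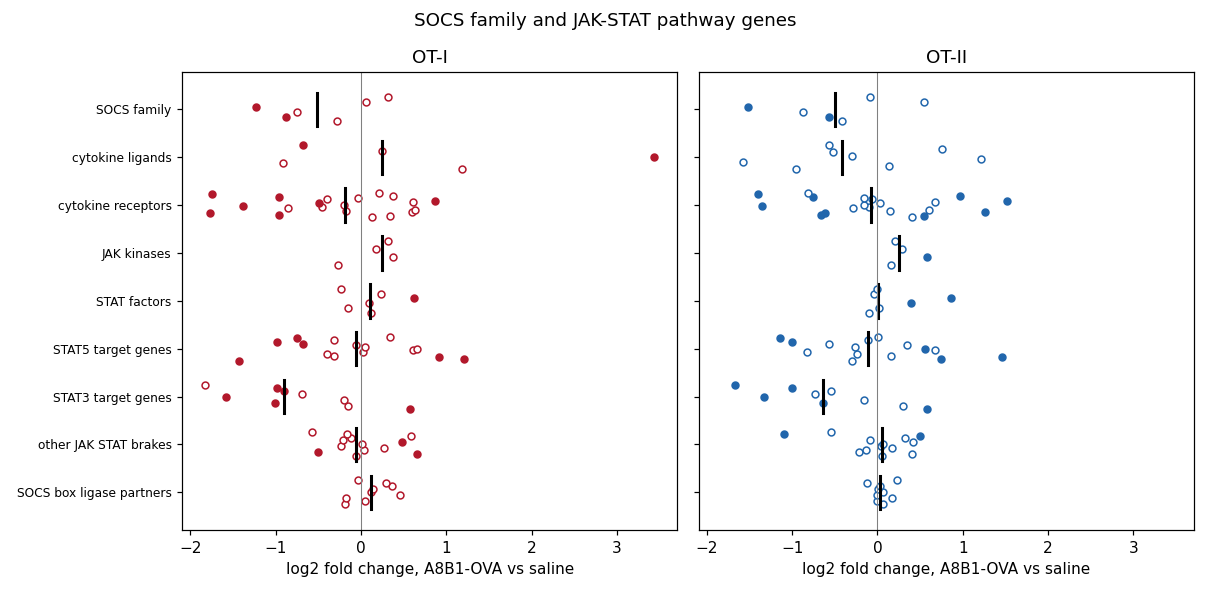
Log2 fold change after A8B1-OVA against saline (horizontal axis) for the 6 SOCS genes and 8 lists of pathway genes (rows), OT-I on the left and OT-II on the right; filled points passed an adjusted p of 0.05 and black bars are medians. The median of the 6 SOCS genes lies at -0.51 and -0.49, the STAT3 targets at -0.90 and -0.64, and the ligase partners near 0.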

How the data were processed

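Polyadenylated RNA was made into cDNA with the SmartSeq protocol, per the labels' protocols. The submitters' processing notes name bcl2fastq, kallisto 0.46.1 and the build GRCm38. The authors deposited estimated counts per gene, all whole numbers, while annotation, strand and rounding were not stated in any source used here. Library totals ran from 26.6 M to 73.5 M, so a count of 0 allows 0.0408 to 0.113 CPM (3 counts, counting error only). The labels mention no molecular identifiers, so reads may not be independent molecules.

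Counts were fitted with edgeR 4.0.16 in R 4.3.3 (TMM, filterByExpr with a minimum count of 10 and total of 15, quasi-likelihood test, Benjamini-Hochberg over all tested genes, called under 0.05). Comparisons of treatments used 1 fit per cell type (14080 and 14757 genes). Comparisons of cell types and differences of responses used 1 fit of all libraries (15235 genes), which also set the CPM scale. The test was tried on simulated counts. Alternatives were DESeq2 1.42.0, its size factors, no filter, only the 2 groups compared, a replicate block, each library left out, and 5 libraries with raised markers left out.

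All 6 members are reported. Of each pathway list, up to 3 called genes with the lowest adjusted p in A8B1-OVA against saline are named, and for members of at least 10 CPM the 3 genes with the highest correlation. A pathway list, a gene of another list and a correlated gene that these rules would name are not reported here. The members and the lists were chosen with earlier results of these data known. Other marker lists (NK, erythroid, platelet) had 0 calls in A8B1-OVA against saline except 1 platelet marker, lower in OT-II. At an unadjusted p under 0.05, OT-I had 2 NK, 0 erythroid and 1 platelet marker, whereas OT-II had 0, 5 and 1. B cell markers had 0 calls in that comparison, and 0 at an unadjusted p under 0.05. Of the CD4, CD8 and CD3 genes 1 was lower in OT-II and 0 were called in OT-I.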

Additional observations from a re-analysis of the deposited data

How the results depend on the processing

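Of the SOCS genes' own log2 fold changes, 0 turned around while called in either setting, and 70 values uncalled in both settings changed sign (51 of them with a library left out). DESeq2 size factors in edgeR changed no call. The number of SOCS genes called differed from the reported one as follows. With DESeq2 it was 3 for OT-I A8B1-OVA against molar-equivalent OVA (Socs2 added), 1 for OT-I A8B1-OVA against higher-dose OVA, 1 for OT-II A8B1-OVA against higher-dose OVA, 2 for OT-II A8B1-OVA against molar-equivalent OVA and 2 for OT-I against OT-II after higher-dose OVA. With only the groups compared it was 1 for OT-I A8B1-OVA against molar-equivalent OVA (Socs1 at edgeR adjusted p = 0.068) and 1 for OT-II A8B1-OVA against saline (Socs1 at 0.051). Without the filter on low counts it was 3 for OT-I against OT-II after A8B1-OVA (Socs2 lost). Without the 5 libraries with raised markers it was 1 for OT-II A8B1-OVA against saline and, for OT-I against OT-II, 2 after higher-dose OVA, 3 after saline and 3 after A8B1-OVA (Socs2 lost in both). With single libraries left out it ran from 1 to 2 for A8B1-OVA against saline in either cell type, 0 to 2 for A8B1-OVA against molar-equivalent OVA in either cell type, and, for OT-I against OT-II, 2 to 4 after saline, 1 to 2 after molar-equivalent OVA, 1 to 2 after higher-dose OVA and 1 to 4 after A8B1-OVA.

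The labels do not say what a replicate number shares, and the main fits treated all libraries as independent. The correlations of same-numbered libraries did not settle that choice. Of 33 same-numbered pairs of a cell type 11 correlated above 0.1 (r from -0.55 to 0.42, median 0.05), beside 24 of 66 other-numbered pairs (median -0.03). Of 11 same-numbered pairs of a treatment 6 did (-0.16 to 0.67, median 0.25), beside 7 of 22 other-numbered pairs (median -0.09). Same-numbered OT-I and OT-II libraries of a treatment thus tended to correlate more than other-numbered ones. The values correlated were deviations from group means, which sum to 0 within a group. The medians of same-numbered and other-numbered pairs therefore depend on each other. Whether same-numbered libraries share a source was not tested. The main tests between cell types and of differences of responses treat them as independent. With the replicate block 1 SOCS gene was called for OT-I A8B1-OVA against higher-dose OVA (Socs3, edgeR adjusted p = 0.032), 2 for OT-II A8B1-OVA against molar-equivalent OVA (Socs1 added, edgeR adjusted p = 0.047) and, for OT-I against OT-II, 2 after higher-dose OVA (Socs3 added) and 3 after A8B1-OVA (Socs2 not called, edgeR adjusted p = 0.065). A block by treatment and number, added after the data were seen, gave for OT-I against OT-II 3 after higher-dose OVA (Socs1 and Socs3 added, Socs1 at edgeR adjusted p = 0.044), 3 after saline and 3 after A8B1-OVA (Socs2 not called, edgeR adjusted p = 0.053 and 0.074). Of all 15235 tested genes, the replicate block called 1270 for OT-I against OT-II after higher-dose OVA, where the main fit called 1534. After A8B1-OVA it called 2913, where the main fit called 3135. Counts of all genes are not given singly for the other comparisons or for the block by treatment and number. The SOCS counts there stand without a share. The cause of the changed SOCS calls was not tested.

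The number of all genes called also moved. For OT-I A8B1-OVA it was 1620 against saline (674 to 2569 with 1 library left out, 977 to 2427 otherwise), 1496 against molar-equivalent OVA (575 to 2181, 575 to 2457) and 339 against higher-dose OVA (38 to 1487, 62 to 1202). For OT-II A8B1-OVA it was 1074 (578 to 1011, 726 to 1892), 939 (441 to 968, 674 to 1713) and 198 (6 to 210, 44 to 706). Higher-dose OVA against saline gave 339 in OT-I (73 to 303, 128 to 712) and 4 in OT-II (0 to 4, 0 to 90). OT-I against OT-II gave 2356 after saline (1731 to 2067, 1583 to 2874), 2433 after molar-equivalent OVA (1703 to 2538, 1855 to 3060), 1534 after higher-dose OVA (681 to 1801, 1270 to 2177) and 3135 after A8B1-OVA (1823 to 3717, 2913 to 3790). The difference of responses gave 66 for A8B1-OVA against saline (30 to 111, 31 to 253). The lowest OT-I A8B1-OVA counts came without A8B1-OVA replicate 2 and the highest without A8B1-OVA replicate 3.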
